A study of Rattus norvegicus with 17 samples.

Results

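The genes described here encode the molecules by which blood vessel walls catch and pass leukocytes, together with proteins that mark the endothelium itself: Madcam1, Vcam1, Icam1, Icam2, Sele, Selp, Vwf, Pecam1, Cdh5 and Kdr. They were chosen by name: a probe that was not a control spot belonged to the set if its gene name, after removal of the array's suffixes for predicted and mapped genes, was one of these 10 names. Of the 10 names 9 were found, on 11 probes, among 35535 gene names on the array. Pecam1 had no probe under that name. A probe named Pecam in the array's design maps to Pecam1 by the updated gene names but falls outside the rule. It lay well above background in 1 of 17 rats.

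Colon mucosa was scraped from 17 female rats that carried the HLA-B27 and β2-microglobulin transgenes on an inbred Fisher 344 background, aged 8 to 10 weeks. The 8 rats of the high calcium group ate a diet with 120 mmol calcium per kg, and the 9 rats of the low calcium group ate one with 30 mmol per kg. Both diets were purified and rich in palm oil, and the added calcium replaced glucose. All rats carried the transgenes, so the comparison is one of diet among transgenic animals; what drives transgene expression was not given in the sources used here. The title of the series puts the question as one of calcium and colitis. Each rat's RNA was labelled with Cy5 and hybridised with a Cy3 pool of all animals, so each value is a log2 ratio of that rat to the pool, and no array had its dyes swapped.

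Leukocytes leave the blood in steps. Selectins on the endothelium slow rolling cells, chemokines activate leukocyte integrins, and these integrins bind immunoglobulin-family molecules on the vessel wall before the cell passes between endothelial junctions. MAdCAM-1 is the addressin of gut venules and binds the α4β7 integrin of gut-homing lymphocytes, whereas VCAM-1 binds α4β1 and ICAM-1 and ICAM-2 bind β2 integrins; cytokines that act through NF-kB are known inducers of E-selectin, VCAM-1 and ICAM-1.

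The promoters of Madcam1, Vcam1 and Icam1 are shown because these 3 genes are the inducible immunoglobulin-family members of the set and were measured in every rat. Of the 10 names 5 had a promoter in the RefSeq table (build GRCr8): Madcam1, Vcam1, Icam1, Sele and Kdr. The 250 bases before each gene start are printed 5′ to 3′ on the gene's strand, with matches to an NF-kB consensus on either strand (GGG, any 5 bases, then CC), or to the TATA box TATAAA on either strand, in capitals. Madcam1 lies at chr7:10690323-10690572 on the minus strand, Vcam1 at chr2:206742784-206743033 on the minus strand and Icam1 at chr8:27829595-27829844 on the plus strand.
Madcam1: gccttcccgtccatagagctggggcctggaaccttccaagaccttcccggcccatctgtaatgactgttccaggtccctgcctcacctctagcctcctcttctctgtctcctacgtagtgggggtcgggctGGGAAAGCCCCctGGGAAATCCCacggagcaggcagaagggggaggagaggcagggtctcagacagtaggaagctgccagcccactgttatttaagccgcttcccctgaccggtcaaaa
Vcam1: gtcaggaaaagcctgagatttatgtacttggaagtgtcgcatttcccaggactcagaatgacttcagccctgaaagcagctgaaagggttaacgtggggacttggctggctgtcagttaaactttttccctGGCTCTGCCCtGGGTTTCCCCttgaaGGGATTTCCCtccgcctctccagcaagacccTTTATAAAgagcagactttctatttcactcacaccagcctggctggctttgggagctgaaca
Icam1: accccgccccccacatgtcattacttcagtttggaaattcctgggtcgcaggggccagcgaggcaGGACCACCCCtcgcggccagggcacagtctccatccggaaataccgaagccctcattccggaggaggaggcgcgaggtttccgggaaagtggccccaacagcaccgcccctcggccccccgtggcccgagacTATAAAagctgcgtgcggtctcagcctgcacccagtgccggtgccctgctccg
In Madcam1, matches to the NF-kB consensus began at -119, -118 and -106 from the gene start, the first and second overlapping each other. Vcam1 had them at -119, -108 and -93, and a TATA box at -60 with an overlapping match on the other strand at -62. Icam1 had 1 match at -185, on the opposite strand, and a TATA box at -53. Of the promoters not printed, Kdr held matches at -105 and -88 and 1 match to a pair of ETS cores (GGAA, any 4 bases, then GGAA) at -140, and Sele held none of the 3 motifs. Over the 33469 promoters of 300 bases in the table, 47.3% held the NF-kB consensus on either strand, 14.2% the TATA box and 3.42% the ETS pair, so a single match is common. The narrower form with GGG, any 4 bases and CCC, whose pattern reads the same on both strands, was counted after the sequences had been seen. Its share over all promoters is therefore a description and no support. Madcam1 and Vcam1 held 2 of them each, as did 1.49% of all promoters with 2 or more, while Kdr held 1 and Icam1 and Sele 0. The consensus requires GGG, so a near form such as tggaaattcc in the Icam1 sequence is not in capitals. A missing match therefore does not mean that a promoter lacks such a site. These are matches of letters, not measured binding sites.

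Of the 9 member genes on the array, 7 had Cy5 signal well above background on enough arrays to be tested (at least 8 of 17), and each of these was above background in all 17 rats. In 6 of the 7, Madcam1, Vcam1, Icam1, Icam2, Vwf and Kdr, the high calcium mean was below the low calcium mean; in Cdh5 it was above. The median difference over the 7 genes, high minus low calcium, was -0.15 on the log2 scale (-0.24 with the scanner software's processed signals), against 0.01 over all 27101 probes tested. None of the 7 passed limma's test at an adjusted p of 0.05, and neither did any other probe on the array (0%). At an unadjusted p under 0.05, 4 of the 7 (57.1%) were lower at high calcium, Vwf, Madcam1, Icam2 and Vcam1, where 4.84% of all tested probes were; none of the 7 was higher, where 3.95% of all probes were, so in either direction the count was 4 of 7, against 8.79%. A difference below 0 was found in 46% of all tested probes. The members were chosen with earlier results of these data known, so these shares only describe them. Some of the 4 genes also varied together over the rats, as described further on. Leaving out rat 10, 11 or 18 took that count of 4 to 3, each time through Vcam1, and leaving out low calcium rat 16 took it to 6 by adding Icam1 and Kdr. It was 0 when arrays were centred on their median in place of loess, where 1.64% of all probes were lower at that p. High and low calcium values overlapped for each of the 7 genes; over all tested probes 0.0295% did not overlap.

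**Figure D1:**
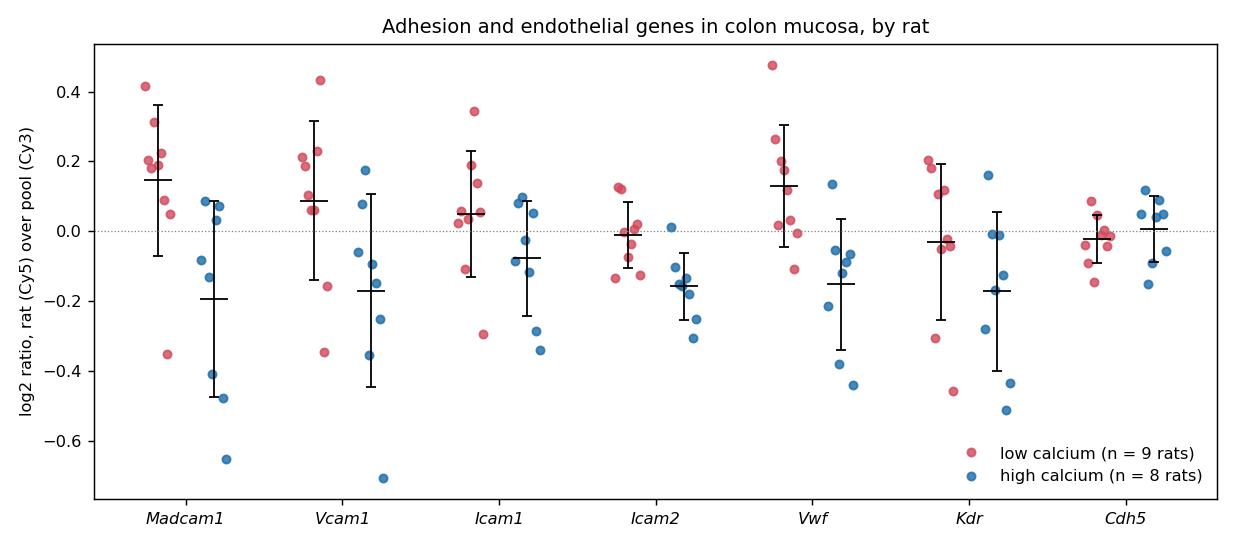
Log2 ratio of each rat to the pool (y axis) for the 7 tested genes (x axis), with 9 low calcium rats (red) and 8 high calcium rats (blue) as points, and black bars for the mean ± SD. The high calcium mean lies below the low calcium mean in all but Cdh5, and the groups overlap in every gene.

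Madcam1, the gut addressin, was measured by a probe at chr7:11553234-11553293 on the minus strand in the array's build, rn3. Its log2 ratio to the pool ran from -0.65 (rat 18) through a median of -0.11 to 0.09 (rat 3) in the high calcium group. In the low calcium group it ran from -0.35 (rat 15) through 0.19 to 0.41 (rat 1). The uncorrected Cy5 signal had a median of 824 at high calcium (420.1 to 1215) and 1003 at low calcium (711.2 to 1295). All 8 high calcium rats lay below the low calcium mean and 7 of the 9 low calcium rats lay above every high calcium rat; low calcium rats 15 and 16 made the overlap. High calcium rats 10, 17 and 18, at -0.41, -0.48 and -0.65, formed the low end, and the other 5 lay between -0.13 and 0.09. The difference in means was -0.34 ± 0.11 (SE; 1.27-fold lower), with an unadjusted p of 0.00436 and an adjusted p of 0.311 in limma. The exact two-sided permutation test over all 24310 assignments of the rats gave p = 0.0143. Without rat 15 the difference was -0.40 ± 0.10, with an adjusted p of 0.148 in limma, and without rat 18 it was -0.27 ± 0.10, with an adjusted p of 0.648.

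Vcam1, the ligand of α4 integrins on activated endothelium, was measured at chr2:212240449-212240508 on the minus strand (rn3). At high calcium its log2 ratio ran from -0.71 (rat 18) through -0.12 to 0.18 (rat 9), and at low calcium from -0.34 (rat 15) through 0.11 to 0.43 (rat 11). Of the 8 high calcium rats 7 lay below the low calcium mean, but only rats 18 and 10 lay below every low calcium rat, and low calcium rats 15 and 16 lay among the lower high calcium values. The difference was -0.26 ± 0.11 (SE; 1.20-fold lower), with an unadjusted p of 0.0258 and an adjusted p of 0.492 in limma and an exact permutation p of 0.0497. Rat 18 carried the most weight: without it the difference was -0.18 ± 0.09, unadjusted p = 0.0684 in limma. Without rat 10 that p was 0.0525 and without rat 11 it was 0.0563.

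Icam1, which binds LFA-1 and Mac-1 on leukocytes and is made by epithelium and leukocytes as well as by endothelium, was spotted 10 times on each array, at chr8:20051730-20051789 on the plus strand (rn3). The SD between its 10 spots on an array had a median of 0.037 (0.027 to 0.052), well under the SD between rats of 0.16 at high and 0.18 at low calcium. Its log2 ratio ran from -0.34 (rat 18) through -0.05 to 0.10 (rat 9) at high calcium and from -0.29 (rat 16) through 0.05 to 0.34 (rat 8) at low calcium. The difference of -0.13 ± 0.08 did not pass, with an unadjusted p of 0.115 in limma, and its 95% interval ran from -0.29 to 0.03. Icam2, which resting endothelium, platelets and leukocytes carry, was measured at chr10:95789422-95789481 on the minus strand (rn3). Its values were tighter, from -0.31 (rat 17) through -0.15 to 0.01 (rat 2) at high calcium and from -0.13 (rat 1) through -0.003 to 0.13 (rat 4) at low calcium. The Icam2 probe was dim, with a median uncorrected Cy5 signal of 237 at high and 259 at low calcium, against 2390 and 2599 for Icam1. The part of the dim signal in the tighter Icam2 values was not tested. In the high calcium group 5 rats had values under the lowest of the low calcium group, and rat 2 was the one high calcium rat above the low calcium mean. The difference was small, -0.15 ± 0.05 (SE; 1.11-fold lower), with an unadjusted p of 0.00673 and an adjusted p of 0.347 in limma and an exact permutation p of 0.00625. The difference from the scanner software's processed signals was -0.24 ± 0.08.

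The selectins, which start rolling, were dim. Sele (E-selectin, chr13:79836630-79836689, plus strand, rn3) lay well above background in 3 of 8 high and 4 of 9 low calcium rats. Selp (P-selectin, chr13:79936266-79936325, plus strand, rn3) did so in none of the 17. Neither entered the test. Fitted without the filter on dim probes, Sele differed by -0.04 ± 0.06 (limma unadjusted p = 0.468) and Selp by -0.09 ± 0.05 (unadjusted p = 0.0957); for Selp both groups were at background, so this is no measure of its level. The difference between these genes and the immunoglobulin-family genes was not tested.

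Vwf encodes von Willebrand factor, the platelet-binding glycoprotein that endothelial cells store in Weibel-Palade bodies beside P-selectin. Its tested probe (chr4:162098933-162099422, plus strand, rn3) ran from -0.44 (rat 18) through -0.10 to 0.14 (rat 3) at high calcium and from -0.11 (rat 15) through 0.12 to 0.48 (rat 1) at low calcium. Rats 2, 10, 13 and 18 of the high calcium group lay below every low calcium rat, and rat 3 was the one high calcium rat above the low calcium mean. The difference was -0.28 ± 0.08 (SE; 1.22-fold lower), with the smallest p of the 7 genes, an unadjusted 0.00194 and an adjusted 0.236 in limma, and an exact permutation p of 0.00448. The difference from the scanner software's processed signals was -0.45. Leaving out each rat in turn gave differences of -0.32 to -0.24, and the smallest adjusted p in limma, 0.0547, came without rat 3. A second Vwf probe (chr4:162054469-162054528, rn3) lay above background in 1 rat and was not tested.

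Kdr, the main signalling receptor for VEGF-A on endothelium, has no position in the array's annotation. It ran from -0.51 (rat 17) through -0.15 to 0.16 (rat 3) at high calcium and from -0.46 (rat 16) through -0.02 to 0.20 (rat 1) at low calcium. Both groups spanned nearly the same range, and the difference of -0.14 ± 0.10 did not pass, with an unadjusted p of 0.159 in limma and a 95% interval of -0.35 to 0.06. Without low calcium rat 16 it was -0.20 ± 0.09 (limma unadjusted p = 0.040), and without high calcium rat 17 it was -0.09 ± 0.09 (unadjusted p = 0.334). Cdh5, the cadherin of endothelial junctions, was the member with the other sign. Its tested probe (chr19:788852-790286, minus strand, rn3) ran from -0.15 (rat 9) through 0.05 to 0.12 (rat 3) at high calcium and from -0.14 (rat 6) through -0.01 to 0.09 (rat 5) at low calcium. The difference was 0.03 ± 0.04, unadjusted p = 0.519 in limma, with a 95% interval of -0.06 to 0.12. A second Cdh5 probe (chr19:779103-779162, rn3) lay above background in 5 rats and was not tested.

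The same few rats stood at the ends of most members. High calcium rat 18 was among the 4 lowest of the 17 rats for 6 of the 7 genes, and high calcium rats 17 and 10 for 5 each. Low calcium rat 4 was among the 4 highest for 5 genes and low calcium rats 1 and 8 for 4 each. High calcium rat 3, with a median over the 7 genes of 0.09, lay above most low calcium rats, and low calcium rat 16, at -0.13, lay below most high calcium rats. Rat 18 stood at the end of other markers too. Of the 14 surrounding gene lists described further on, it had the lowest list mean of all 17 rats in 8, among them fibroblasts (-0.82), other endothelial genes (-0.34), leukocytes (-0.31) and smooth muscle and pericytes (-0.27), and the highest in colonic epithelium (0.35). The part of those cell types in this rat's member values was not tested.

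Arrays shared slides. On each of slides 1 to 4, 2 high and 2 low calcium rats were hybridised, and low calcium rat 1 was alone on slide 5. Slide 4 held high calcium rats 17 and 18 and low calcium rats 11 and 15. Rats 18 and 17 had the lowest medians over the 7 genes, -0.44 and -0.28, while rats 15 and 11 stood at -0.04 and 0.03. The part of the slide in these rats' values was not tested. Within slides 1, 2, 3 and 4 the high calcium mean of Madcam1 differed from the low calcium mean by -0.12, -0.52, -0.15 and -0.43. For Vwf the differences were -0.17, -0.32, -0.25 and -0.21, and for Icam2 -0.04, -0.21, -0.10 and -0.29. Those of Vcam1 were -0.01, -0.17, -0.26 and -0.52. These 4 genes were lower at high calcium on each of the 4 slides, by less than 0.05 for Vcam1 and Icam2 on slide 1. Icam1 did not keep its sign, at 0.12, 0.07, -0.30 and -0.41, nor did Kdr, at 0.08, 0.01, -0.10 and -0.44, or Cdh5, at 0.14, -0.09, 0.05 and 0.02. With the slide as a block in limma, Madcam1 differed by -0.31 ± 0.08 (adjusted p = 0.269) and Vwf by -0.24 ± 0.07 (adjusted p = 0.385).

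**Figure D2:**
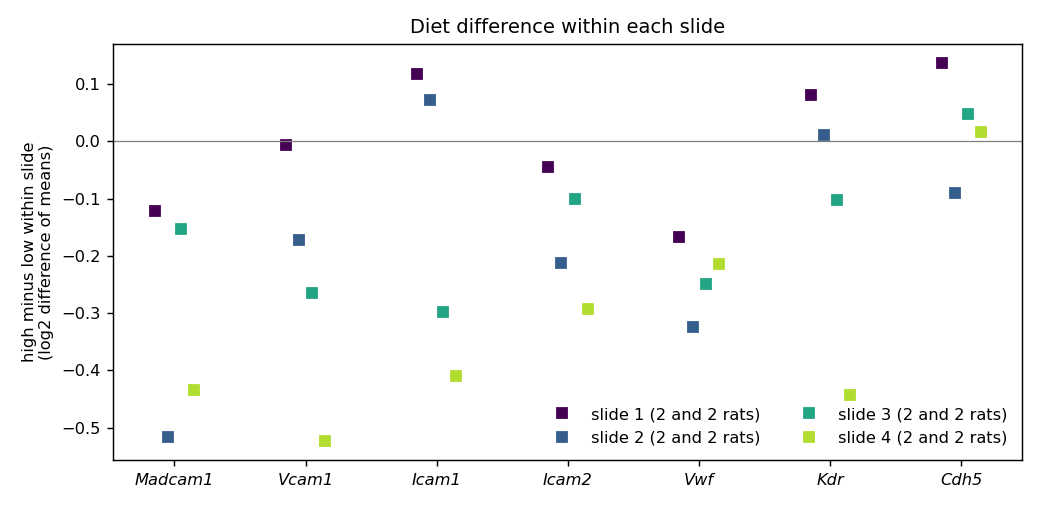
High minus low calcium difference of mean log2 ratios (y axis) within each of the 4 slides that held both diets, 2 and 2 rats each, for the 7 tested genes (x axis). Squares of Madcam1, Vcam1, Icam2 and Vwf lie below 0 on each slide, and those of Icam1, Kdr and Cdh5 fall on both sides.

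Among rats of one diet the members varied together in part. Over the 21 pairs of the 7 genes, deviations from the diet means were correlated across the 17 rats, with p-values from 100000 permutations within diets and Benjamini-Hochberg adjustment over the 21 pairs. By Pearson's r 7 pairs passed, by Spearman's rho 7, and 6 by both. Madcam1 and Vwf had r = 0.756 and rho = 0.703 (permutation p 0.00106 and 0.00283, adjusted 0.00917 and 0.024). Madcam1 and Vcam1 had r = 0.749 and rho = 0.659 (permutation p 0.00131 and 0.00694, adjusted 0.00917 and 0.0291). The first pair kept r = 0.61 (permutation p = 0.016) without the 2 rats farthest from the median of Madcam1. The second was weaker without those 2 rats, with r = 0.437 (permutation p = 0.126). Vcam1 and Vwf likewise had r = 0.656 and rho = 0.603 (permutation p 0.00692 and 0.0163, adjusted 0.0363 and 0.0489) with all rats, and r = 0.419 (permutation p = 0.133) without the 2 rats farthest in Vcam1.

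By Pearson's r the closest partner of Kdr was Icam1, at 0.767 (permutation p = 0.00074, adjusted 0.00917), but the ranks of that pair did not pass (rho = 0.574, permutation p = 0.023, adjusted 0.0603), and by rho Madcam1, Vcam1 and Vwf were closer to Kdr. Without the 2 rats farthest in Icam1 r was 0.70 (permutation p = 0.00796). Within diets that r was 0.847 over the 8 high calcium rats and 0.703 over the 9 low calcium rats, and with slide means also removed, over 16 rats, it was 0.801. For Madcam1 and Vwf the same 3 values were 0.71, 0.82 and 0.698, for Madcam1 and Vcam1 0.806, 0.673 and 0.789, and for Vcam1 and Vwf 0.814, 0.479 and 0.646. Kdr with Vwf had r = 0.621 and rho = 0.684 (permutation p 0.0112 and 0.00435, adjusted 0.0446 and 0.024), and r = 0.521 without the 2 rats farthest in Vwf. Kdr with Madcam1 had r = 0.598 and rho = 0.713 (permutation p 0.0158 and 0.00248, adjusted 0.0474 and 0.024), and r = 0.675 without the 2 rats farthest in Madcam1. Icam1 with Vcam1 had r = 0.606 and rho = 0.608 (permutation p 0.0127 and 0.015, adjusted 0.0446 and 0.0489), and r = 0.611 without the 2 rats farthest in Vcam1. For Kdr with Madcam1, r was 0.796 at high but 0.378 at low calcium, and 0.444 with slide means removed. For Kdr with Vwf these 3 values were 0.578, 0.664 and 0.513, and for Icam1 with Vcam1 0.783, 0.446 and 0.612. Kdr with Vcam1 passed by rho alone (0.689, adjusted permutation p = 0.024). No pair that held Icam2 or Cdh5 passed, and r over those 11 pairs ran from -0.183 to 0.333. The probes of Icam2 and Cdh5 had the lowest median Cy5 signals of the tested members, and the part of this in their low r was not tested. All values come from 1 array per rat, so a rat's array is shared by both genes of a pair. Pairs of other genes were not counted in this way. How common such correlations are over all probes is therefore not known here. The permutations did not keep slides apart, and r with slide means removed carries no p.

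**Figure D3:**
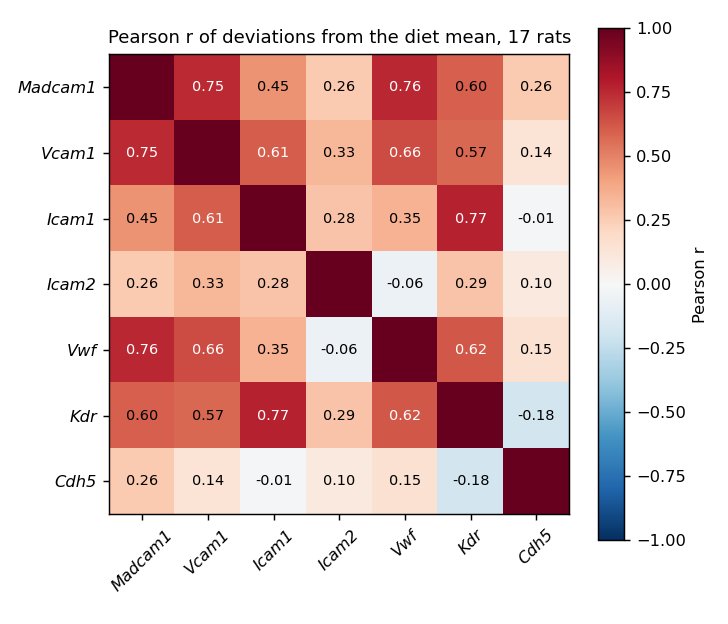
Pearson's r between the 7 tested genes (both axes) over 17 rats, after removal of each diet's mean, coloured from -1 (blue) to 1 (red). Among Madcam1, Vcam1, Vwf and Kdr r lay between 0.57 and 0.76, and the highest r of all pairs was that of Icam1 with Kdr (0.77). The rows of Icam2 and Cdh5 are pale.

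Over all tested probes with a gene symbol, the 5 with a pattern most like that of Madcam1 over the 17 rats, by Pearson's r of log2 ratios, were Mmrn2 (0.886), Thbs2 (0.882), Nos3 (0.870), Mphosph8 (0.870) and Cldn5 (0.864). Mmrn2 encodes an endothelial matrix protein, Nos3 the endothelial nitric oxide synthase and Cldn5 the endothelial claudin. The 5 most like Vwf were Thbs2 (0.892), Ifi214 (0.883), Aqp9 (0.883), Cxcr4 (0.881) and Itpr1 (0.880). Nos3 and Cldn5 are in the list of other endothelial genes described next, and no gene named here beside Vwf is. The Thbs2 probe beside Madcam1 is not the one beside Vwf; Thbs2 is a thrombospondin of stromal matrix. These values describe the most similar of many probes, include the diet difference, and carry no test.

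Other endothelial genes were counted in a list of 22, of which 18 were tested. In 16 of the 18 the high calcium mean was below the low calcium mean, and 9 were lower at an unadjusted p under 0.05 in limma, with a median difference of -0.13. None passed after adjustment. For this list and each list below, the shares over all tested probes were 46% with a difference below 0, and 4.84% lower and 3.95% higher at that p. The 4 with the smallest p were Thbd, thrombomodulin (-0.48 ± 0.10), Procr, the endothelial protein C receptor (-0.50 ± 0.16), Mcam, an adhesion molecule of vessel walls (-0.46 ± 0.16), and the transcription factor Sox18 (-0.15 ± 0.06), with adjusted p-values of 0.142, 0.301, 0.390 and 0.437 in limma. The count of 9 was 5 without high calcium rat 10 or 18, and 3 with median centring. In lymphatic endothelium 4 genes were tested, all 4 lower in the mean, and Pdpn, podoplanin, was the one with an unadjusted p under 0.05 (-0.11 ± 0.05, unadjusted p = 0.0382 in limma); that count was 0 without rat 2, 5, 6, 10 or 17.

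**Figure D4:**
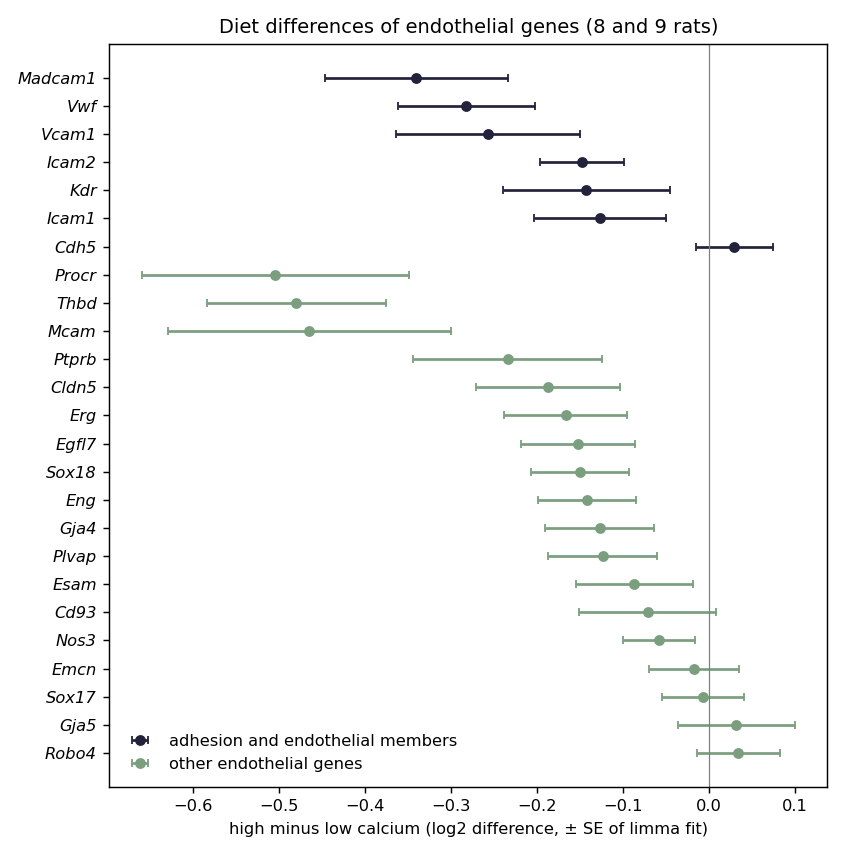
High minus low calcium difference (x axis, log2, ± SE of limma's fit over 8 and 9 rats) for the 7 tested members (dark) and 18 other endothelial genes (green). Thbd, Procr and Mcam lie farther from 0 than any member, and Cdh5, Gja5 and Robo4 lie above 0.

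Markers of other cell types were counted in the same way, and none of them passed after adjustment. Colonic epithelium was plain in every sample: all 14 of its markers, among them Cdh1, Krt20 and Muc2, were well above background in all 17 rats. Of the 14, 12 were higher in the mean at high calcium, 2 of them at an unadjusted p under 0.05 in limma, Muc2, the goblet cell mucin (0.23 ± 0.07), and Car2, a carbonic anhydrase (0.33 ± 0.16), with a median of 0.13; Fabp2 (0.20 ± 0.10) and Krt20 (0.17 ± 0.11) followed. The mean of that list per rat ran from -0.22 to 0.35 at high and from -0.40 to 0.15 at low calcium. Fibroblast markers went the other way, with 7 of 7 lower in the mean, 6 at an unadjusted p under 0.05 in limma, and a median of -0.49. The proteoglycans Dcn (-1.03 ± 0.22) and Lum (-0.59 ± 0.13), the collagen gene Col1a1 (-0.53 ± 0.12) and the receptor Pdgfra (-0.49 ± 0.11) led, each with an adjusted p of 0.142 in limma. The list's mean per rat ran from -0.82 to 0.21 at high and from -0.19 to 0.52 at low calcium.

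Of the leukocyte markers 9 of 10 were lower in the mean, 5 at an unadjusted p under 0.05 in limma, led by the myeloid genes Itgam (-0.26 ± 0.07), Cd68 (-0.35 ± 0.10) and Csf1r (-0.21 ± 0.06) and by Cd2 of T cells (-0.25 ± 0.08), with a median of -0.15. Of 11 tested smooth muscle and pericyte genes 7 were lower in the mean, 3 at that p, the pericyte genes Pdgfrb (-0.39 ± 0.10) and Kcnj8 (-0.30 ± 0.11) and the contractile gene Tagln (-0.31 ± 0.14), and Smtn was higher (0.13 ± 0.05). Of 4 platelet genes Pf4 was lower at that p (-0.26 ± 0.11) and Gp1bb (-0.11 ± 0.06), Ppbp (0.05 ± 0.05) and Gp9 (0.04 ± 0.05) were not; leaving out rat 4, 5, 13, 14 or 18 took that count to 0 and leaving out rat 3 to 2. With median centring the counts for fibroblasts, leukocytes, smooth muscle and platelets were 2, 2, 0 and 0. In bulk mucosa, fewer endothelial cells and less of an RNA per endothelial cell cannot be told apart, and the part of these other cell types in the members' differences was not tested.

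**Figure D5:**
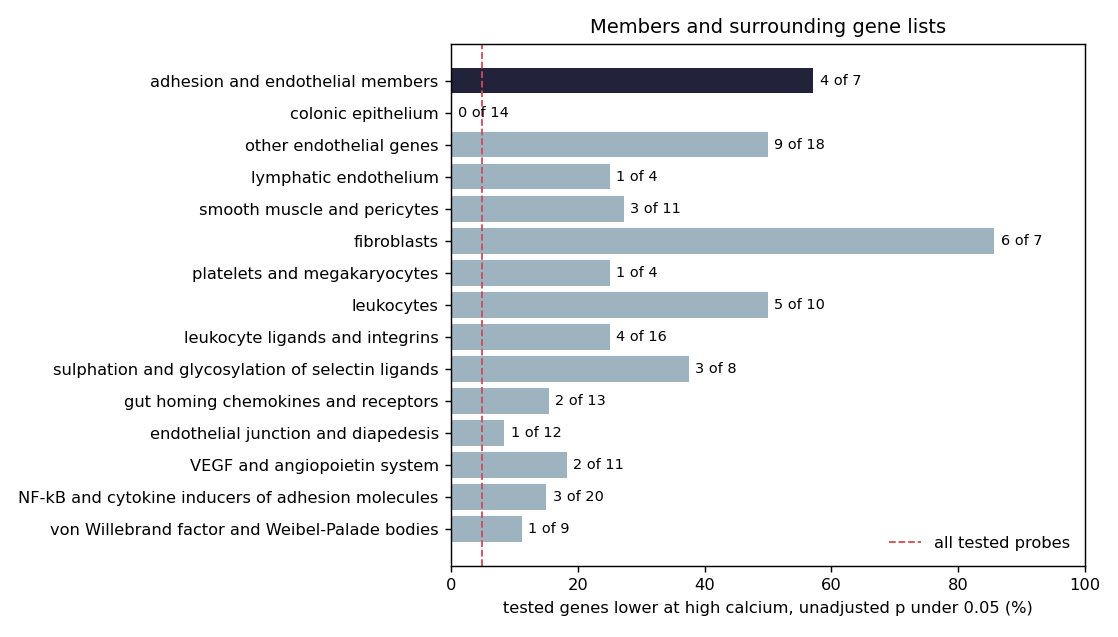
Percent of tested genes lower at high calcium with an unadjusted p under 0.05 in limma (x axis), for the members and 14 surrounding gene lists (y axis), with counts at the bars and a dashed line at 4.84%, the percent over all tested probes. The members stand at 4 of 7, other endothelial genes at 9 of 18, fibroblasts at 6 of 7 and epithelium at 0 of 14; some genes stand in more than one list.

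On the leukocyte side of these contacts, the α4β7 integrin that binds MAdCAM-1 is made of Itga4, which differed by -0.03 ± 0.05, and Itgb7, which differed by -0.11 ± 0.05 (limma unadjusted p = 0.517 and 0.0593). Itgb1, the β1 chain of the VCAM-1 receptor, was added after its value was seen and differed by -0.04 ± 0.09 (limma unadjusted p = 0.665). LFA-1, the receptor for the ICAMs, is made of Itgal (-0.05 ± 0.06, unadjusted p = 0.386 in limma) and Itgb2, the shared β2 chain, which was lower (-0.33 ± 0.10, unadjusted p = 0.00406, adjusted p = 0.306 in limma). Selplg, the P-selectin ligand of leukocytes, differed by 0.03 ± 0.05. Of the 16 tested ligands and integrins 11 were lower in the mean and 4 were lower at an unadjusted p under 0.05 in limma: Itgam, Itgb2, Podxl, a sialomucin of endothelium and podocytes (-0.38 ± 0.15), and Cd44, a hyaluronan receptor (-0.22 ± 0.10). The median was -0.06, and the count was 1 with median centring.

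Selectin ligands are finished by sulphation and fucosylation. Of 8 such genes 7 were lower in the mean and 3 were lower at an unadjusted p under 0.05 in limma, the fucosyltransferase Fut7 (-0.30 ± 0.10), the core branching enzyme Gcnt1 (-0.16 ± 0.06) and the sulphotransferase Chst2 (-0.22 ± 0.09), while Fut4, another fucosyltransferase, differed by 0.10 ± 0.06. That count was 0 with median centring and 1 with the series matrix values or without background correction. Among 13 homing chemokines and receptors 11 were lower in the mean and 2 at that p, Cxcr4, the receptor of Cxcl12 (-0.28 ± 0.08), and Ccr6, the receptor of Ccl20 (-0.25 ± 0.09); their ligands Ccl20 (-0.38 ± 0.19) and Cxcl12 (-0.29 ± 0.17) did not reach it. The count of 2 was 4 without rat 2, 9 or 15, 1 in the Cy5 channel alone and 0 with median centring.

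Junction and diapedesis genes were split evenly, 6 of 12 lower in the mean with a median of 0.00. Lower in the mean were Cldn5, Plvap and Esam, which also stand among the other endothelial genes, and Jam3, Jam2 and Ctnnb1. Higher in the mean were Cd99l2, Ocln, Ctnnd1, Jup, F11r and Tjp1. In bulk mucosa this list does not measure endothelium alone, so the even split is no statement about endothelial junctions. Cldn5 was lower (-0.19 ± 0.08) and Cd99l2 higher (0.22 ± 0.10) at an unadjusted p under 0.05 in limma, and Plvap, of endothelial fenestrae (-0.12 ± 0.06), and Esam (-0.09 ± 0.07) came next. Leaving out rat 1, 4, 5, 6, 8, 10, 11, 17 or 18 took the count of 1 lower gene to 0, as did median centring, and leaving out rat 3, 9 or 15 took it to 2. In the VEGF and angiopoietin system 11 of 11 tested genes were lower in the mean, with a median of -0.06, and 2 were lower at that p, Angpt2, the Tie2 ligand stored in Weibel-Palade bodies (-0.40 ± 0.12), and Apln, the peptide apelin (-0.25 ± 0.10). Of all tested probes 46% had a difference below 0, and 4.84% were lower and 3.95% higher at that p. Vegfb (-0.08 ± 0.07) and Vegfa, the ligand of Kdr (-0.06 ± 0.05), did not reach it, and Flt1, the other VEGF-A receptor, lay above background in 4 rats and was not tested. Of 9 genes tied to von Willebrand factor and Weibel-Palade bodies, Angpt2 was lower and Rab27a, a small GTPase of the granules, higher (0.10 ± 0.05) at that p, and Plat (-0.23 ± 0.14) and Edn1 (0.14 ± 0.12) did not reach it; the count of 1 lower gene was 2 without rat 3 or 5.

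Inducers of adhesion molecules were also counted. Of 20 tested genes of the NF-kB and cytokine list 14 were lower in the mean, with a median of -0.05. At an unadjusted p under 0.05 in limma 3 genes were lower. These were Il1b, an inflammatory cytokine (-0.25 ± 0.11), Tnfrsf1b, a TNF receptor (-0.24 ± 0.10), and Nfkbie, an inhibitor of NF-kB (-0.15 ± 0.07). Chuk, a kinase of the NF-kB pathway (0.09 ± 0.04), was higher at that p. The cytokine Il1a, named after its value was seen, had the largest difference of the list and did not reach that p (-0.33 ± 0.18, unadjusted p = 0.0802 in limma). Leaving out rat 4, 17 or 18 took the count of 3 lower genes to 0; leaving out rat 1, 6, 7, 8, 13 or 15 took it to 1, and leaving out rat 9 to 5. It was 0 with array weights, with the scanner software's processed signals or with median centring, and 1 with the series matrix values or without background correction. No gene of any of these lists passed after adjustment over all probes.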

How the data were processed

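Mean and background signals of both dyes are deposited as spot intensity values; per the file headers they come from Agilent Feature Extraction 9.5.1.1, and the submitters' processing notes give 9.5. The deposited series matrix holds log2 values of the same arrays; how the authors made them was not given in the sources used here, their offset and centring stay unknown, and they served as an alternative. No column of per-sample values was left unused (0).

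Intensities were corrected by normexp (offset 50) and loess within arrays in limma 3.58.1 (R 4.3.3), control and outlier-flagged spots at weight 0, and spots of a probe were averaged. A probe entered the test when 8 or more arrays had it well above background in Cy5 (27101 of 41012), a gene by its brightest tested probe. Diets were compared with lmFit and eBayes, two-sided, with Benjamini-Hochberg adjustment across the tested probes and a call below 0.05. Median Cy5 signal per array was 146.8 to 180.8, 60% to 72% of probes lay well above background, and the number of rats limits precision. The labels name each rat separately, so p-values measure the spread between rats. Loess centres each array, so a shift of most genes would not be seen.

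The members and lists were chosen with earlier results of these data known. Every member is named, as are up to 4 tested genes of each list with the smallest unadjusted p and, of the members' ligands and receptors, those listed here (Itga4, Itgb7, Itgal, Itgb2, Selplg, Vegfa, Flt1), with the 5 genes most like Madcam1 and Vwf. The junction list is named in full, after its values were seen. Probe names were brought up to date with the GRCr8 RefSeq table: 10735 matched through an accession, 5577 through a symbol and 3730 through a synonym, while 20970 stayed as designed. Probe positions are those of the array's annotation (rn3).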

Additional observations from a re-analysis of the deposited data

Results flagged for a closer look

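Within 14 groups, the 7 tested member genes in each diet, 1 rat stood apart from the others of its group. For Madcam1, low calcium rat 15 was the lowest of 9 at -0.35, and its gap to the next rat was 0.523 of the group's range, above Dixon's critical value of 0.493. About 1 in 20 such groups is expected to show this by chance. The same rat, on slide 4 with rats 11, 17 and 18, was also the lowest of its group for Vcam1 (-0.34) and Vwf (-0.11). Neither gap was beyond that limit. Without rat 15 the Madcam1 difference was -0.40 ± 0.10 (unadjusted p = 0.000435, adjusted p = 0.148 in limma). Over leaving out each rat in turn the smallest adjusted p in limma was 0.123.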

How the results depend on the processing

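Over 12 alternatives in background correction, normalisation, filter, variance model, slide, source of values and probe rule, and over leaving out each of the 17 rats, the sign of each of the 7 differences stayed, and the count of members past an adjusted p of 0.05 in limma stayed at 0. The exception among counts was that of members lower at an unadjusted p under 0.05, which was 4 as reported and 0 with median centring in place of loess; probes had a median residual SD of 0.272 there and 0.117 with loess. Leaving out 1 rat at a time gave 3 to 6 for that count, 0 to 0 for the adjusted count and -0.20 to -0.13 for the median difference, which ran from -0.24 to -0.11 over the other alternatives. Counts of the surrounding lists that moved by over 1.5 times stand beside them in the text, except these: lymphatic genes were 2 with array weights, without background correction, with processed signals, in the Cy5 channel alone or with the series matrix values and 0 with the filter on all arrays; smooth muscle genes were 5 with processed signals; and junction genes were 2 with array weights or the mean of a gene's probes. Medians of the lists moved as well. With the scanner software's processed signals that of other endothelial genes was -0.35, of lymphatic genes -0.52, of smooth muscle -0.24, of platelet genes -0.13, of homing chemokines -0.25 and of the VEGF system -0.16. With median centring that of the NF-kB list was 0.00, of the sulphation list -0.03 and of the ligands -0.03. Without rat 18 the smooth muscle median was -0.04 and that of the ligands -0.03. Of the members without an unadjusted p under 0.05, Icam1 differed by -0.06 and Kdr by -0.08 with median centring, and Cdh5 by 0.14 in the Cy5 channel alone. Over all genes 193 probes passed the adjusted threshold without rat 3 and 38 without rat 16, none of them a member. No paired analysis was possible because the replicate numbers of the labels run through both diets and none is shared. Dim probes limit what can be said of Sele, Selp and Pecam.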
